A study of Homo sapiens with 6 samples.

Results

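BICD2 and 9 genes that work with it were examined: the adaptor genes BICD1 and HOOK3, the cytoplasmic dynein chain genes DYNC1H1, DYNC1I2, DYNC1LI1 and DYNC1LI2, the dynactin genes DCTN1 and DCTN2, and the dynein regulator gene PAFAH1B1. All 10 were found by symbol among the 20030 names of the count table. BICD2 was chosen by its large increase between the groups, so its values are given as a description with no test. The other 9 were listed for their role. They and the further lists below were drawn up with earlier results of these data known. Their p-values and shares that passed are thus not those of genes chosen blind to the data. The study sequenced messenger RNA of KGN, to ask how expression differs when SNHG5 is knocked down. KGN is a line grown from a granulosa cell tumour of the human ovary, and RNA was taken 48 h after transfection. There were 3 libraries from cells given siRNA against SNHG5, a long noncoding RNA, labelled as a knockdown genotype, and 3 from cells given negative control siRNA, labelled WT. All 6 come from a single tumour line, and the labels do not say whether replicates were separate cultures, so p-values measure only the spread between these samples, which may be technical.

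Cytoplasmic dynein is a motor that walks along microtubules towards their minus ends and carries vesicles, RNA, nuclei and chromosomes. By itself it is a weak walker. The multi-subunit complex dynactin and a long coiled-coil adaptor join it to form a processive machine, and the adaptor also selects the cargo. BICD2, named after the Drosophila gene Bicaudal D, is such an adaptor: it binds RAB6 on Golgi vesicles and the nuclear pore protein RANBP2 before mitosis, where it brings dynein to the nucleus.

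Total counts per library ranged from 18232634 to 22088913, and the floor of detection, set at a count of 3, was 0.136 to 0.165 in CPM, the counts scaled by library size and TMM factors. For transcript length, SNHG5 siRNA replicate 2 stood apart: across genes, its deviation from its group mean had a Spearman correlation of -0.509 with length. The other 5 libraries had -0.266 to 0.412 (a description across genes, which share the library). For GC content, control siRNA replicate 3 stood apart at -0.467, against -0.138 to 0.324 in the other libraries. Deviations from a group mean balance within the group, so these values are not independent. SNHG5 itself was not analysed here. The granulosa factors FOXL2 and NR5A1 had 25.8 to 33.5 and 37.9 to 39.1 CPM with SNHG5 siRNA, and 24.1 to 26.9 and 35.0 to 37.1 CPM with control siRNA, while AMHR2 had 0 counts in each SNHG5 siRNA library and 1 in each control library, and the 3 theca cell markers were at 0 in every library. Over all 6 libraries, the granulosa markers INHA (0.0515 to 0.537 CPM), CYP19A1 (0.165 to 0.553 CPM) and WT1 (0.316 to 0.77 CPM) were also very low. The 9 granulosa markers summed to 441 to 486 CPM with SNHG5 siRNA and 963 to 1046 CPM with control siRNA, most of it FST. Of the 6 of these that were tested, FST, GATA4 (79.5 to 84.5 CPM with SNHG5 siRNA, against 106 to 108 CPM with control siRNA) and FSHR (1.16 to 1.85 CPM with SNHG5 siRNA, against 2.97 to 3.42 CPM with control siRNA) fell in edgeR, and FOXL2, NR5A1 and WT1 did not pass. The summed level of 3 leukocyte markers, nearly all of it CD68, was 27.4 to 29.1 CPM with SNHG5 siRNA and 22.3 to 26.3 CPM with control siRNA. That of 3 fibroblast markers, nearly all of it PDGFRA, lay between 25.4 and 31.9 CPM, lower in each SNHG5 siRNA library than in any control library (LUM at 0, DCN at 0.0515 to 0.44 CPM). Neither CD68 (edgeR adjusted p = 0.0508) nor PDGFRA (edgeR adjusted p = 0.0968) passed. The part of these differences between markers' levels in the results below was not tested.

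BICD2 (chromosome 9, 92711363 to 92764812, minus strand, GRCh38) had 81.7, 79.2 and 89.0 CPM in SNHG5 siRNA replicates 1, 2 and 3, against 31.4, 33.7 and 28.7 CPM in control siRNA replicates 1, 2 and 3. The lowest SNHG5 siRNA library was far above the highest control library, and each group was tight, with coefficients of variation of 6.11% and 7.96%. Raw counts were 1811, 1575 and 1729 with SNHG5 siRNA and 643, 685 and 523 with control siRNA. The fitted difference was 2.66-fold (log2 fold change, SNHG5 siRNA over control siRNA, 1.41 ± 0.07 SE, n = 3 each). By size of increase, BICD2 ranked 11 among all 12508 tested genes. Among the 10465 of them with a mean of at least 5 CPM, 3 had a larger increase. BICD2 was chosen for this increase, so both ranks follow from the choice. In bulk RNA, a change in the share of cells that express a gene and a change in RNA per cell cannot be told apart. In the deposited FPKM, which scale fragments to gene length, BICD2 stood at 10.9, 10.7 and 11.4 with SNHG5 siRNA and at 3.88, 4.20 and 3.83 with control siRNA.

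Its paralogue BICD1 (chromosome 12, 32106835 to 32383633, plus strand), which encodes an adaptor of the same family, had 33.3, 28.9 and 32.9 CPM with SNHG5 siRNA and 29.3, 27.7 and 28.5 CPM with control siRNA. The groups overlapped through SNHG5 siRNA replicate 2, and the log2 fold change of 0.15 ± 0.08 (SE) did not pass (adjusted p = 0.115). Here and below, adjusted p is that of edgeR's quasi-likelihood fit over all 12508 tested genes after Benjamini-Hochberg correction, 2-sided, and a gene passed under 0.05. Without SNHG5 siRNA replicate 2, BICD1 passed in edgeR at 0.22 (adjusted p = 0.0114). Within a library, the ratio of BICD2 to BICD1 in FPKM was 5.69, 6.79 and 6.13 with SNHG5 siRNA, against 2.21, 2.58 and 2.38 with control siRNA. By FPKM, BICD2 was thus the more abundant paralogue in every library of both groups. In raw counts, which are not scaled to length, the 2 genes were closer with control siRNA. BICD2 had 643, 685 and 523 counts there, and BICD1 had 601, 563 and 519. The related adaptor genes BICDL1 and BICDL2 were at or near 0, with 1 count per SNHG5 siRNA library and 1 to 4 per control library for BICDL1, and 0 counts in every library for BICDL2, and were not tested.

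**Figure D1:**
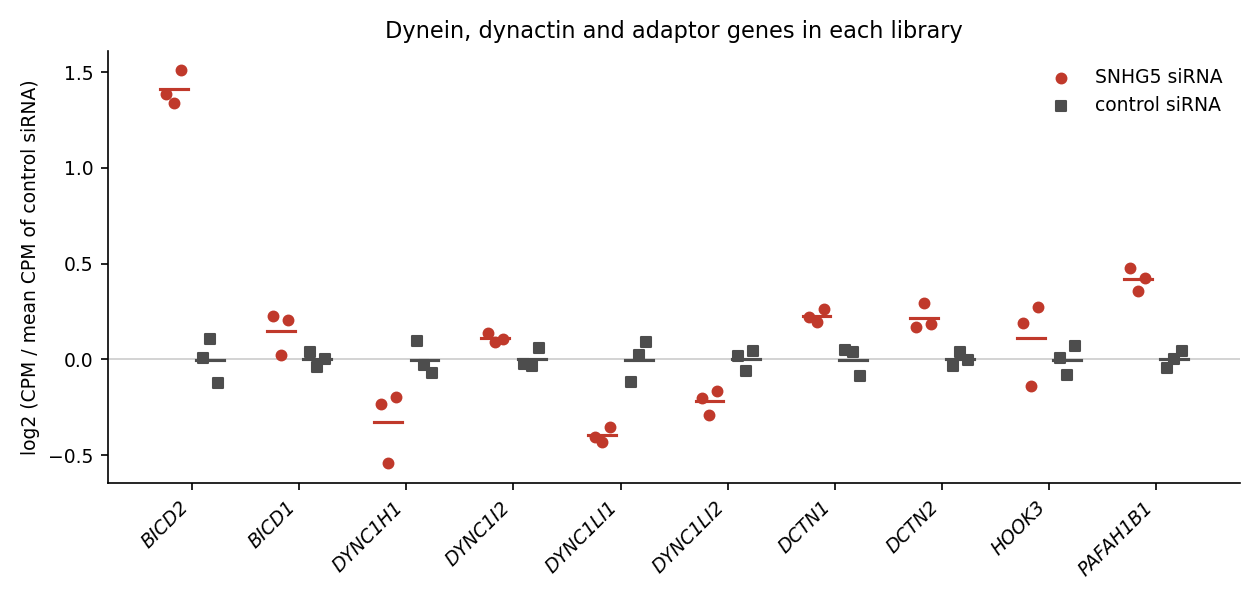
Each point is 1 library, plotted as the log2 of its CPM over the mean CPM of the control siRNA libraries, with SNHG5 siRNA (circles) left of control siRNA (squares) for each gene; horizontal bars are means of 3. BICD2 stands at about 1.41 with SNHG5 siRNA, and the 3 dynein genes DYNC1H1, DYNC1LI1 and DYNC1LI2 lie below their control libraries. SNHG5 siRNA replicate 2 (the middle circle) is the lowest of its group for every gene except DCTN2, where it is the highest.

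Short words in 3' UTRs were looked up in the BICD2 transcript and its partners, because an siRNA or a miRNA is known to lower transcripts whose 3' UTR pairs with the bases at positions 2 to 8 of its strand, the seed. The series title names miR-92a-3p, whose site is GTGCAAT; the other words, TCGGAGA and ACACGAA, were taken up with earlier results of these data known. The mature miRNA (RefSeq, GRCh38.p14; seed in capitals) and some of the sites in the listed genes (GENCODE v29, GRCh38; the word in capitals, read along the transcript) are shown so that the pairing can be seen.
hsa-miR-92a-3p: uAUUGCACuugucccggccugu
BICD2, miR-92a-3p site, chr9:92714096-92714102, minus strand: ctctttatttaGTGCAATctgggggatggc
PAFAH1B1, miR-92a-3p site, chr17:2682695-2682701, plus strand: tttttagggatGTGCAATgtgcattacata
BICD2, TCGGAGA, chr9:92712934-92712940, minus strand: tagctttagacTCGGAGAtgagtgctttga
BICD1, ACACGAA, chr12:32377781-32377787, plus strand: agttgagaagaACACGAAgcacagaccctg
DYNC1LI2, ACACGAA, chr16:66720909-66720915, minus strand: ggcttcaataaACACGAAtccagactgctt
Coordinates are those of the word alone. Of the 10 genes, 3 hold the miR-92a-3p site: BICD2, PAFAH1B1 and 1 that fell, whose site is not printed. In BICD2 the TCGGAGA word began 2214 bases into a 3' UTR of 3791 bases and the miR-92a-3p site 1052 bases into it.

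BICD2 was the only one of the 10 genes with TCGGAGA. Of 12289 tested genes with an annotated 3' UTR, 331 (2.69%) held that word. Their median log2 fold change was 0.13, and 39.0% of them passed as higher and 11.5% as lower, while the 11958 genes without it had a median of -0.01, with 19.9% higher and 20.3% lower. The 331 genes with ACACGAA went the other way, with a median of -0.19, 11.5% higher and 46.5% lower. The 3' UTRs of both sets were long, with medians of 2811 and 2874 bases. The 1750 genes with the miR-92a-3p site, 14.2% of those with a 3' UTR, had a median of 0.02, against -0.01 in the 10539 without it, with 22.6% against 20.1% higher and 18.5% against 20.3% lower. TCGGAGA and ACACGAA were taken up with earlier results of these same data known. Their medians and shares are therefore a description and no test of either word. BICD2, chosen by its increase, is itself among the 331 genes with TCGGAGA. The sequences of the 2 siRNAs are not given in the sources used here, and the part of these words in the level of BICD2 was not tested.

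**Figure D2:**
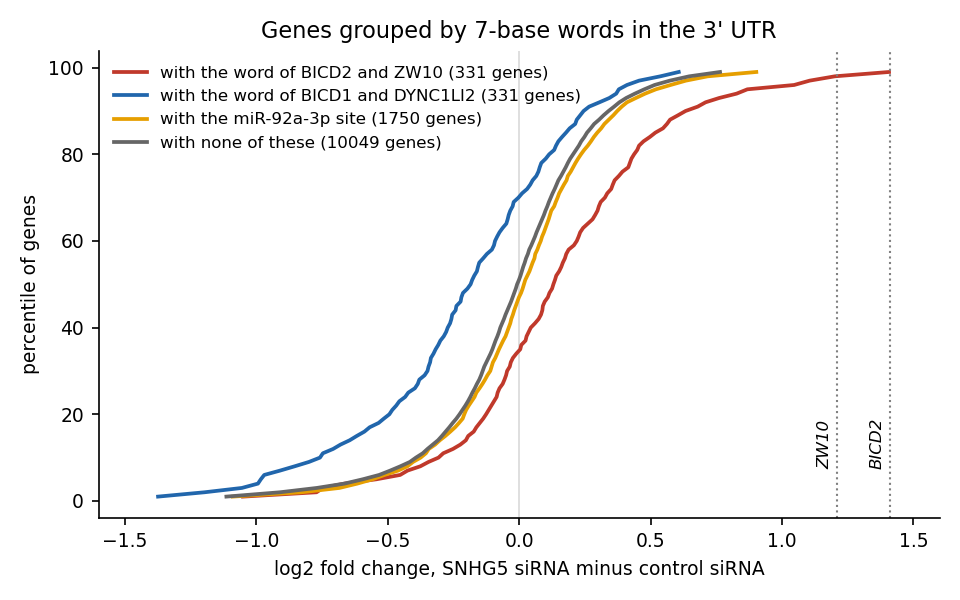
Percentiles (y axis) of the log2 fold change, SNHG5 siRNA minus control siRNA (x axis), for tested genes whose 3' UTR holds the word found in BICD2 and ZW10 (TCGGAGA), the word found in BICD1 and DYNC1LI2 (ACACGAA), the miR-92a-3p site, or none of these; dotted lines mark ZW10 at 1.21 and BICD2 at 1.41. The first curve lies to the right of the others through most of its range (median 0.13), and the second to the left (median -0.19).

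The remaining 9 genes were compared between SNHG5 siRNA and control siRNA to ask whether other parts of the motor differed. Of them, 3 rose (PAFAH1B1, DCTN1 and DCTN2), 3 fell (DYNC1H1, DYNC1LI1 and DYNC1LI2) and 3 did not pass (BICD1, DYNC1I2 and HOOK3). Among all tested genes, 40.2% passed, 20.3% higher and 19.9% lower. With upper quartile scaling in place of TMM, 39.9% of all passing genes were higher, against 50.5% with TMM. In 7 of the 9 genes the SNHG5 siRNA and control siRNA libraries were fully apart in CPM, with no overlap, against 49.8% of all tested genes. The median log2 fold change of the 9 was 0.12, against -0.0052 over all tested genes. Without SNHG5 siRNA replicate 2, all 9 passed, 6 as higher and 3 as lower. That refit also had more genes passing over the whole table, 5605 against 5026 in the main fit. With any other library left out, 6 of the 9 passed, and 3991 to 4337 genes over the whole table. Whether the 9 gained more than other genes did was not tested.

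Of the 4 dynein chain genes, 3 fell and 1 did not pass. DYNC1H1 (chromosome 14, 101964510 to 102056443, plus strand), which encodes the heavy chain that holds the motor domain, had 1256, 1014 and 1288 CPM with SNHG5 siRNA, against 1580.5, 1446 and 1408 CPM with control siRNA. The groups did not overlap, and SNHG5 siRNA replicate 2 was the lowest of all 6. It fell by 0.32 ± 0.07 on the log2 scale (SE; edgeR adjusted p = 0.00125), and by 0.21 without SNHG5 siRNA replicate 2 (edgeR adjusted p = 1.76e-05). Its longest annotated transcript, at 20003 bases, was the longest among the 10 genes, and the decrease was 0.27 with the trend on transcript length removed from each library.

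DYNC1LI1 (chromosome 3, 32525971 to 32570874, minus strand) encodes a light intermediate chain, the part of dynein that adaptors grip. It had 49.7, 48.8 and 51.5 CPM with SNHG5 siRNA, against 60.6, 66.7 and 69.9 CPM with control siRNA. All SNHG5 siRNA libraries lay below all control libraries, with a log2 fold change of -0.39 ± 0.06 (SE; edgeR adjusted p = 6.55e-05). DYNC1LI2 (chromosome 16, 66720893 to 66751798, minus strand) encodes the other light intermediate chain and had 168, 158 and 172 CPM with SNHG5 siRNA, against 195, 185 and 199 CPM with control siRNA. These groups too were apart, by a smaller amount (-0.21 ± 0.05; edgeR adjusted p = 0.00344). A noncoding gene on the opposite strand shares 21.6% of the exon bases of DYNC1LI2, and whether counting used strand is not given in the sources used here.

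DYNC1I2 (chromosome 2, 171687409 to 171748420, plus strand), whose product is the intermediate chain that binds dynactin, had 151, 146 and 148 CPM with SNHG5 siRNA and 135, 134 and 143 CPM with control siRNA. Although the groups did not overlap, the difference of 0.11 ± 0.05 on the log2 scale did not pass (edgeR adjusted p = 0.101). It passed at 0.12 without SNHG5 siRNA replicate 2 (edgeR adjusted p = 0.0359).

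Both dynactin genes on the list rose. DCTN1 (chromosome 2, 74361154 to 74392087, minus strand), which encodes the large subunit that reaches out to the microtubule, had 201, 197 and 207 CPM with SNHG5 siRNA, against 178, 177 and 162 CPM with control siRNA. The log2 fold change was 0.22 ± 0.05 (SE; edgeR adjusted p = 0.00244), with no overlap between groups. DCTN2 (chromosome 12, 57530102 to 57547331, minus strand), which encodes dynamitin, the subunit that ties the arm of dynactin to its filament, had 114, 124 and 115 CPM with SNHG5 siRNA, against 98.9, 104 and 101 CPM with control siRNA. This was a log2 fold change of 0.21 ± 0.05 (SE; edgeR adjusted p = 0.00474), again with no overlap.

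PAFAH1B1 (chromosome 17, 2593210 to 2685615, plus strand) encodes LIS1, which binds the dynein motor domain, helps it out of its inhibited form and is mutated in the brain malformation lissencephaly. It had 296, 272 and 285 CPM with SNHG5 siRNA, against 206, 213 and 219 CPM with control siRNA. The lowest SNHG5 siRNA library exceeded the highest control library, and the log2 fold change of 0.42 ± 0.05 (SE; edgeR adjusted p = 3.14e-06) was the largest among the 9 genes. HOOK3 (chromosome 8, 42896932 to 43030539, plus strand), an adaptor of endosomes and the centrosome region, had 89.7, 71.5 and 95.2 CPM with SNHG5 siRNA and 79.1, 74.3 and 82.5 CPM with control siRNA. SNHG5 siRNA replicate 2 was below every control library while replicates 1 and 3 were above them all. HOOK3 did not pass at 0.12 ± 0.08 (edgeR adjusted p = 0.244), but passed at 0.24 without SNHG5 siRNA replicate 2 (edgeR adjusted p = 3.40e-04) and at 0.15 with the length trend removed (edgeR adjusted p = 0.0262).

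Levels per length were compared in the deposited FPKM. With SNHG5 siRNA, DYNC1H1 led at 59.1 ± 6.76 FPKM (mean ± SD, n = 3), followed by PAFAH1B1 (31.8 ± 1.72), DYNC1LI2 (24.2 to 27.5 over its libraries), DCTN1 (25.1 ± 0.284), DCTN2 (23.7 ± 1.64) and DYNC1I2 (19.4 ± 0.863 FPKM). Then came DYNC1LI1 (13.2 ± 0.778), BICD2 (10.7 to 11.4), HOOK3 (5.05 ± 0.859) and BICD1 (1.78 ± 0.178 FPKM). In that order, DYNC1LI2 overlapped DCTN1 and DCTN1 overlapped DCTN2, and no other neighbours did. With control siRNA, DYNC1H1 was again highest (71.8 ± 3.62 FPKM) and BICD1 lowest (1.66 ± 0.0807 FPKM). BICD2 (3.97 ± 0.199 FPKM) there lay below HOOK3 (4.88 ± 0.192 FPKM), and PAFAH1B1 (24.3 ± 0.446 FPKM) below DYNC1LI2 (30.7 ± 0.713 FPKM). The order of both pairs was thus different in the 2 groups, and none of these pairs overlapped within a group. With control siRNA, DCTN2 and DYNC1I2 were the only neighbours that overlapped.

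**Figure D3:**
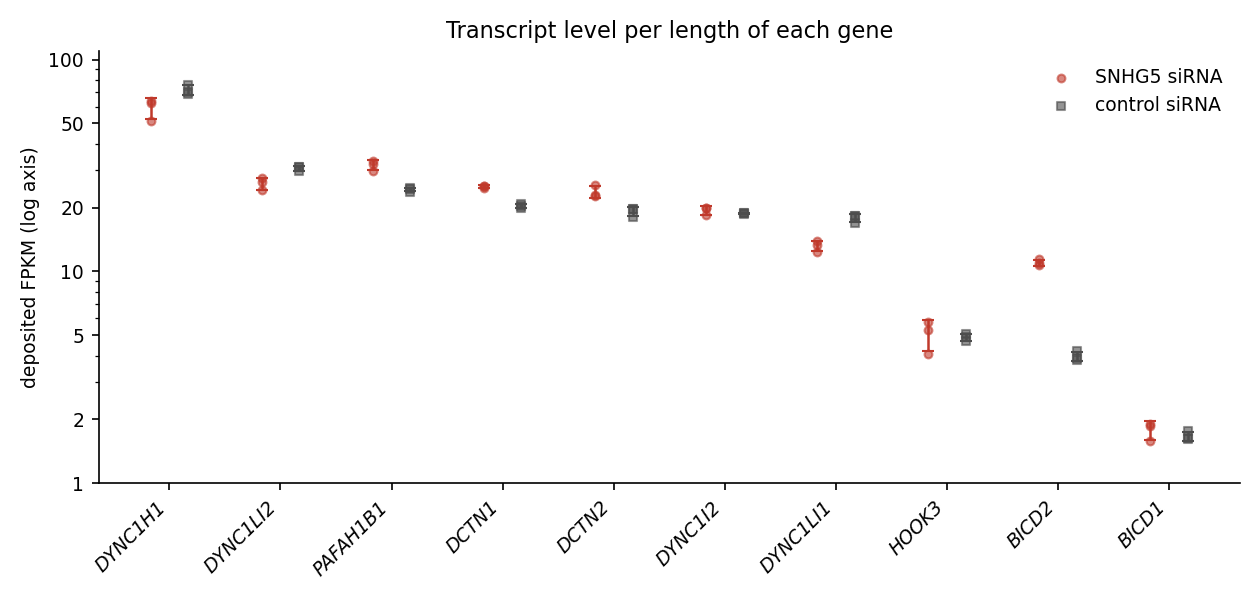
Deposited FPKM of each gene on a log axis, ordered by the control siRNA mean; points are libraries, bars are the mean ± SD of 3, and SNHG5 siRNA is left of control siRNA. BICD2 lies above HOOK3 with SNHG5 siRNA (at least 10.7 and at most 5.76 FPKM) and below it with control siRNA (means 3.97 and 4.88 FPKM).

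Ratios between genes within a library do not depend on library scaling. The size of a ratio does depend on the gene lengths that the authors used for FPKM. The ratio of DYNC1LI1 to DYNC1LI2 in FPKM was 0.504, 0.512 and 0.506 with SNHG5 siRNA, against 0.542, 0.611 and 0.591 with control siRNA. DYNC1LI2 was the more abundant chain in every library, and the ratio was lower with SNHG5 siRNA by 0.19 on the log2 scale (-0.98 ± 0.01 and -0.79 ± 0.09, mean ± SD; exact 2-sided permutation p = 0.1, adjusted p = 0.15 over 3 ratios). For 3 against 3 libraries, 0.1 is the smallest p that this exact test allows. The ratio of DYNC1I2 to DYNC1H1 was 0.319, 0.358 and 0.313 with SNHG5 siRNA, against 0.248, 0.265 and 0.273 with control siRNA, a log2 difference of 0.33 with no overlap (exact permutation p = 0.1, adjusted p = 0.15). In counts per kilobase of the longest annotated transcript, the SNHG5 siRNA means of DYNC1I2 and DYNC1H1 were close (1167 and 1217). Which of these 2 genes has more transcripts, and by how much, is thus not settled by the FPKM ratio. The ratio of DCTN1 to DCTN2 was 1.08, 0.982 and 1.12 with SNHG5 siRNA and 1.13, 1.05 and 1.01 with control siRNA. These overlapped, with a log2 difference of -0.01 (exact permutation p = 0.9, adjusted p = 0.9), and the sign was not stable: it was 0.01 from raw counts, and without 1 library it ran from -0.05 to 0.05.

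**Figure D4:**
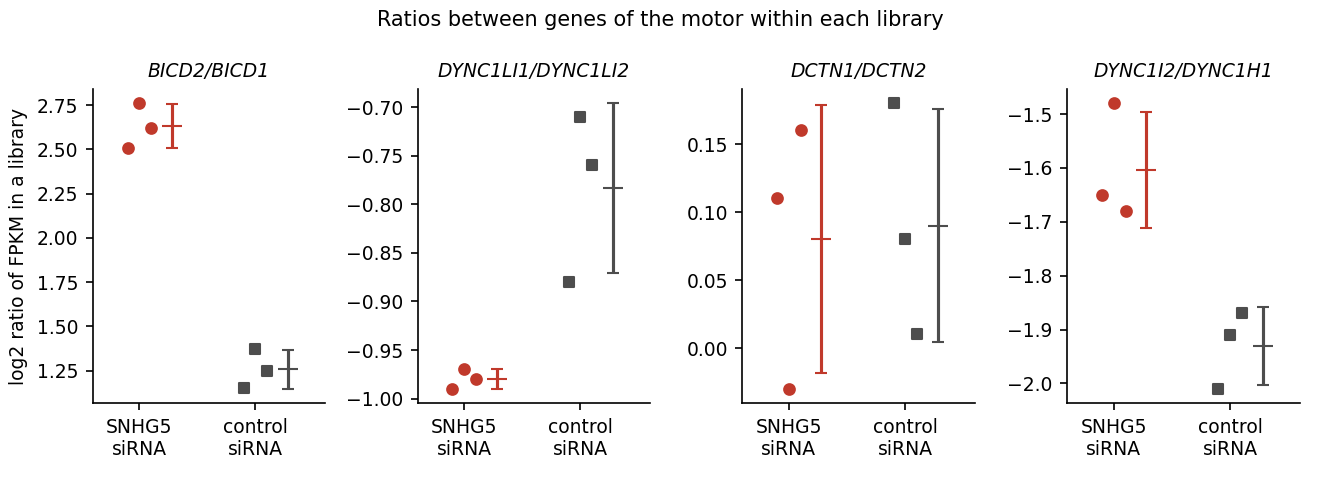
Log2 ratio of FPKM between a pair of genes in each library (points), with the mean ± SD of 3 beside them; each panel has its own y axis, and SNHG5 siRNA is left of control siRNA. The BICD2/BICD1 panel spans 1.15 to 2.76, while the groups of DCTN1/DCTN2 overlap.

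The wider dynein system was described from 57 other genes in 7 lists, of which 51 were tested. These lists too were drawn up with earlier results of these data known. Among all tested genes 40.2% passed (20.3% higher and 19.9% lower), which is the share to set beside each list below. Of the 51, 45.1% passed: 16 rose, 7 fell and 28 did not pass, with a median log2 fold change of 0.05. In limma on log2 FPKM with 1 added, 15 of them passed: the 8 that did not were DYNLT3 (0.09), CAPZA2 (0.06), HOOK2 (-0.14), NIN (0.22), GPSM2 (0.16), KNTC1 (0.09), CDK1 (0.09) and DYNC2I1 (-0.15). Of those that did, RILP (-0.35), MAPK8IP1 (-0.25), KIF5C (-0.19) and PLK1 (-0.15) were more than 1.5 times smaller there than the values below, and CAPZB (0.27) larger.

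Of 6 tested dynein chains not on the main list, 2 rose, 0 fell and 4 did not pass (33.3% passing, median 0.08). DYNLL2, a light chain, had 69.4, 68.1 and 67.9 CPM with SNHG5 siRNA, against 49.8, 53.2 and 47.8 CPM with control siRNA, with a log2 fold change of 0.44 ± 0.06 (edgeR adjusted p = 8.38e-06). DYNLT3, another light chain, rose by 0.22 (edgeR adjusted p = 0.00554), and by 0.12 without passing when the trend on GC content was removed (edgeR adjusted p = 0.0847). Most genes of this list encode light chains, so the kind of chain that passed follows largely from the list, and other light chains on it did not pass.

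Of 10 dynactin genes other than DCTN1 and DCTN2, 40.0% passed, against 40.2% of all tested genes. They gave 4 higher, 0 lower and 6 not passing (median 0.11). The clearest was ACTR1B, which encodes a form of the actin-related protein that builds the dynactin filament: it had 51.7, 57.8 and 53.3 CPM with SNHG5 siRNA, against 37.9, 37.5 and 35.9 CPM with control siRNA (0.55 ± 0.06; edgeR adjusted p = 1.55e-06). Its more abundant paralogue ACTR1A rose by 0.16 (edgeR adjusted p = 0.0228), as did CAPZA2 (0.16; edgeR adjusted p = 0.0341) and CAPZB (0.17; edgeR adjusted p = 0.0144), subunits of the capping protein at the filament end. These calls were marginal: with upper quartile scaling ACTR1A (0.12), CAPZA2 (0.12) and CAPZB (0.13) did not pass, and CAPZA2 did not pass with the GC trend removed (0.10). Leaving out control siRNA replicate 1 ended the calls of ACTR1A (0.14) and CAPZA2 (0.13), leaving out control siRNA replicate 2 did the same (0.15 for each), and leaving out SNHG5 siRNA replicate 2 ended that of CAPZA2 (0.11).

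Of the 15 other adaptor genes, 11 were tested, and 2 rose, 3 fell and 6 did not pass (45.5% passing, median 0.03). RAB11FIP3, an adaptor of recycling endosomes, had 76.9, 78.3 and 77.5 CPM with SNHG5 siRNA, against 62.4, 61.5 and 60.6 CPM with control siRNA (0.33 ± 0.05; edgeR adjusted p = 7.65e-05). The second that rose, NIN, a centrosome protein, had 0.29 (edgeR adjusted p = 0.00146). Those that fell were all low: RILP, an adaptor of late endosomes and lysosomes, had 2.17, 2.51 and 2.01 CPM with SNHG5 siRNA, against 3.66, 4.48 and 3.74 CPM with control siRNA (-0.83 ± 0.18; edgeR adjusted p = 0.00101). MAPK8IP1, a scaffold of the JNK kinases that also binds motors, fell by 0.63 (edgeR adjusted p = 0.00191) at 3.34 ± 0.330 and 5.16 ± 0.107 CPM. HOOK2, a relative of HOOK3, fell by 0.38 (edgeR adjusted p = 0.00546) at 8.25 ± 0.498 and 10.7 ± 0.559 CPM. HOOK1 had 0 counts in every SNHG5 siRNA library and 0 to 2 in the control libraries.

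Among 5 regulators, 3 rose, 1 fell and 1 did not pass (median 0.17). MAPRE1, which encodes the plus-end protein EB1, had 218, 232 and 219 CPM with SNHG5 siRNA, against 169, 178 and 193 CPM with control siRNA (0.31 ± 0.06; edgeR adjusted p = 2.09e-04). CLIP1, a plus-end protein that recruits dynactin, rose by 0.27 (edgeR adjusted p = 6.30e-04) and NUDC, a chaperone partner of LIS1, by 0.17 (edgeR adjusted p = 0.0325). NUDC did not pass with upper quartile scaling (0.13), nor when SNHG5 siRNA replicate 2 (0.11) or control siRNA replicate 1 (0.17) or 3 (0.13) was left out. NDE1, which helps LIS1 reach dynein, fell by 0.20 (edgeR adjusted p = 0.00691) at 81.5 ± 2.22 and 93.3 ± 1.89 CPM. Of its exon bases, 13.9% lie opposite MYH11.

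Genes that bring dynein to kinetochores and the cell cortex in mitosis gave 4 higher, 0 lower and 2 not passing of 6 (66.7% passing, median 0.19). ZW10, a subunit of the complex that loads dynein on kinetochores and that also acts in Golgi traffic, had 52.4, 53.3 and 52.1 CPM with SNHG5 siRNA, against 23.0, 22.1 and 23.4 CPM with control siRNA. Within each group its libraries differed by little more than 1 CPM, and the groups were 2.31-fold apart (log2 fold change 1.21 ± 0.07; edgeR adjusted p = 6.68e-11). After BICD2 it was the largest difference among the 61 tested genes of the lists. Its partners in that complex changed less, ZWILCH by 0.48 (edgeR adjusted p = 2.87e-06) and KNTC1 by 0.18 (edgeR adjusted p = 0.0287). GPSM2, a cortical anchor, rose by 0.20 (edgeR adjusted p = 0.00879), with 30.7% of its exon bases opposite CLCC1. With control siRNA replicate 2 left out, GPSM2 (0.17) and KNTC1 (0.14) did not pass. KNTC1, whose groups overlapped, also missed the threshold with upper quartile scaling (0.14), with the GC trend removed (0.12), and when SNHG5 siRNA replicate 1 (0.12) or 3 (0.17) was left out, or control siRNA replicate 3 (0.20).

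ZW10, like BICD2, holds TCGGAGA in its 3' UTR, and the sites in the other genes of the lists are set beside it for comparison.
ZW10, chr11:113733300-113733306, minus strand: ttctgagcaaaTCGGAGAtattttaggggt
TRAK1, chr3:42210773-42210779, plus strand: caaataaacctTCGGAGAacgtcactaagc
NDE1, chr16:15724402-15724408, plus strand: tcttcttcgagTCGGAGAgctacaaggaca
Of the 61 tested genes, these and BICD2 make 4 with the word. Their log2 fold changes were 1.41 (BICD2), 1.21 (ZW10), -0.05 (TRAK1, which did not pass) and -0.20 (NDE1). The 4 with ACACGAA were BICD1 (0.15), DYNC1LI2 (-0.21), DYNLL2 (0.44) and RAB6A (0.00), and 8 held the miR-92a-3p site, with a median of 0.00. Genes with either word thus lay on both sides of 0, and the part of the word in BICD2 or ZW10 was not tested.

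Cargo and motor partners of BICD proteins gave 1 higher, 2 lower and 5 not passing of 8 (37.5% passing, median -0.05). RAB6A, the Golgi GTPase that BICD2 binds, had 158, 151 and 162 CPM with SNHG5 siRNA and 156, 153 and 162 CPM with control siRNA, a log2 fold change of 0.00 ± 0.05 (edgeR adjusted p = 0.981). RANBP2, the nuclear pore partner, had -0.05 ± 0.05 (edgeR adjusted p = 0.510), and KIF5B, the kinesin-1 heavy chain that moves the opposite way, had -0.05 ± 0.05 (edgeR adjusted p = 0.383). SYNE2, a nuclear envelope anchor, had 145, 124 and 164 CPM with SNHG5 siRNA and 156, 130.1 and 129 CPM with control siRNA (0.06 ± 0.08; edgeR adjusted p = 0.624), and passed at 0.16 without SNHG5 siRNA replicate 2 (edgeR adjusted p = 0.0183). KIF5C, a neuronal kinesin-1 heavy chain, fell by 0.78 (edgeR adjusted p = 3.85e-04) at 3.23 ± 0.320 and 5.57 ± 0.581 CPM. Of the mitotic kinases that act with BICD2 at the nuclear envelope, PLK1 fell by 0.24 (edgeR adjusted p = 0.00161) and CDK1 rose by 0.19 (edgeR adjusted p = 0.00450).

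For comparison, the 5 chains of dynein-2, the separate motor of cilia, gave 0 higher, 1 lower and 4 not passing (median 0.03). The chain that fell was DYNC2I1, listed as WDR60, at 16.8 to 19.0 CPM with SNHG5 siRNA, against 21.3 to 22.6 CPM with control siRNA (-0.32 ± 0.08; edgeR adjusted p = 0.00467).

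**Figure D5:**
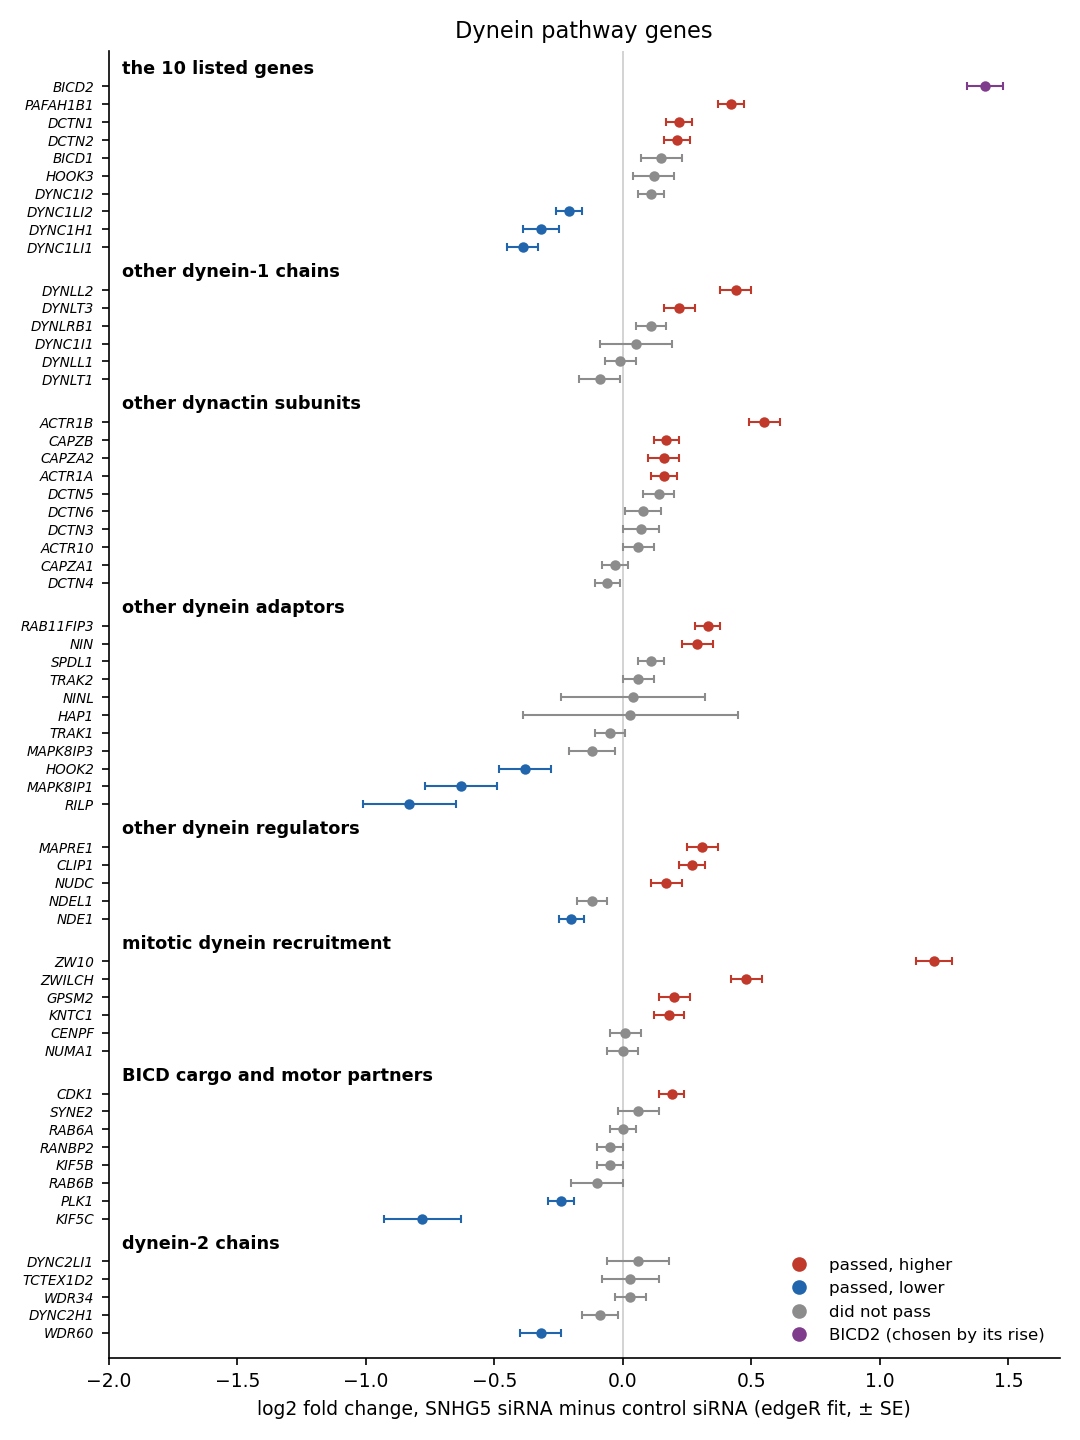
Log2 fold change, SNHG5 siRNA minus control siRNA, with its SE from the edgeR fit (x axis), for the 10 listed genes and the 51 other tested genes by list; colours mark genes that passed as higher or lower, did not pass, or, for BICD2, were chosen by their rise. BICD2 (1.41) and ZW10 (1.21) lie apart from the rest, which run from -0.83 (RILP) to 0.55 (ACTR1B).

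The genes whose pattern over the 6 libraries lay nearest to that of BICD2 were found by the Euclidean distance between log2 CPM values centred on the control siRNA mean, among 10464 other genes with a mean of at least 5 CPM. Among the nearest were CDK14 (distance 0.16), which encodes a cyclin-dependent kinase, NOLC1 (0.18), a nucleolar phosphoprotein, GANAB (0.19), a glucosidase of the endoplasmic reticulum, and RAP1GAP2 (0.24), a GTPase-activating protein of RAP1. CDK14 had 61.9, 55.3 and 61.7 CPM with SNHG5 siRNA and 22.5, 23.6 and 22.4 CPM with control siRNA. Pearson correlations of these 4 genes with BICD2 over the 6 libraries were 0.994 to 0.996 (a description; the libraries share the difference between groups). CDK14 and NOLC1 hold TCGGAGA in a 3' UTR, and GANAB and RAP1GAP2 do not, while 2.69% of tested genes with a 3' UTR hold it. These genes were picked by their likeness to BICD2, so their large increases (log2 fold changes of 1.31 to 1.40) follow from that choice. The word was itself taken up with results of these data known, so its presence in them is a description only.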

How the data were processed

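Per the labels, each library was built by a SMARTER mRNA-seq kit, and per the submitters' processing notes reads were trimmed with Trimmomatic and the build was GRCh38. The sources used here name no aligner, counting program or annotation (not given). Gene counts, as deposited, are whole numbers per gene name, not normalised by the authors; the deposited FPKM were scaled to length and library size by the authors. The 2 tables held 0 columns of other samples. In the count table, 27 names read as dates (0.257% of counts) and 4 entries share a name; they were kept and never named.

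Counts were scaled by TMM, and 12508 genes that passed filterByExpr were tested in edgeR 4.0.16 (R 4.3.3) by the quasi-likelihood test; 7522 were not tested. The test was tried on simulated data first. Ratios of FPKM were tested by exact permutation. Alternatives were DESeq2 1.42.0, limma 3.58.1 on log2 FPKM with 1 or 0.1 added, other scalings, no filter, a replicate block, GC and length trends removed (98.7% of tested genes had both values in GENCODE v29), and each library left out. A 3' UTR word was looked for in every protein-coding transcript of a gene. Python 3.11.15 with pandas 2.3.3 and matplotlib 3.10.9 made the tables and plots.

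The genes, lists and words were chosen with earlier results of these data known. Named always were the 10 genes, RAB6A, RANBP2, SYNE2 and KIF5B; from each list up to 4 passing genes by absolute log2 fold change; and the 5 nearest to BICD2, of which 1 is not reported here. TRAK1, NIN, and genes with few or 0 counts were named after their values were seen. Floors cover counting error only.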

Additional observations from a re-analysis of the deposited data

How the results depend on the processing

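Over 15 alternatives, BICD2 ranged from 1.27 (log2 FPKM with 1 added) to 1.47, and the 6 other listed genes that passed kept their direction and their call in each. Of the 9 genes, 6 passed in every alternative except with the length trend removed (7) and without SNHG5 siRNA replicate 2 (9). Those refits also had more genes passing over the whole table (5736 and 5605) than the main fit. Over all genes 5026 passed, 3991 to 5605 with 1 library left out, and 3993 to 5736 otherwise; with upper quartile scaling 39.9% of passing genes were higher, against 50.5% with TMM. Of the other pathway genes 23 passed, 19 to 23 with 1 library left out, and 15 by limma on log2 FPKM with 1 added (16 with 0.1 added); the cause was not tested. Among 38 named genes and 570 refits, 517 were unchanged, 36 ended a call, 6 gained one, 10 changed sign and 1 moved in size. Unchanged means the same direction and call. For BICD2, which has no call, it means a change smaller than the larger group SD of its log2 CPM. The refit that moved was BICD2 at 1.27, by limma on log2 FPKM with 1 added. The changes of sign were in RAB6A, near 0 throughout (-0.04 with upper quartile scaling, -0.06 by limma with either amount added, -0.05 and -0.01 with GC and length trends removed, -0.02 to 0.03 with 1 library left out), and SYNE2 (-0.04 to 0.16 with 1 library left out). The difference in the DCTN1 to DCTN2 ratio was 0.01 from raw counts and -0.05 to 0.05 with 1 library left out; its cause was not tested. The highest over the lowest level among the 10 genes with SNHG5 siRNA was 33.2 in FPKM and 16.5 in counts per kilobase of the longest transcript, where DYNC1I2 ranked 2 and not 6. Deviations of same-numbered libraries had weak correlations (0.046, 0.130 and 0.026), against -0.116 to 0.084, mostly below 0, for libraries of different number. Whether the numbers mark a weak pairing cannot be told from these values. The main fit did not take them as pairs. With the replicate block 5714 genes passed, the listed genes kept their calls, and the exact p of the DYNC1LI1 to DYNC1LI2 and DYNC1I2 to DYNC1H1 ratios was 0.25, the smallest that 3 pairs allow. RILP, MAPK8IP1, KIF5C and HOOK2, under 12 CPM, are the least precise.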
